A study of Arabidopsis thaliana with 8 samples.

Results

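The 10 genes described here encode mitotic A- and B-type cyclins of Arabidopsis thaliana, 5 of each type, and were taken by gene identifier from the 27213 protein-coding genes counted in the series. Their chromatin was compared between leaves and a suspension cell culture of the same ecotype, Col-0. The leaves came from plants on MS agar plates. The culture was 1 cell line in Gamborg's B5 medium with 1.1 mg/l of the synthetic auxin 2,4-D and was subcultured every 7 d. Its medium held 3% sucrose and 3 mM MES, and it was shaken at 160 rpm and grown at 23 C. Antibodies against histone H3, H3K4me3, H3K27me3 and H3K9me2 were used on both materials, with 1 sequenced library each, 8 in all. There are therefore no replicates, and every interval below covers counting error only.

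Mitotic cyclins bind and activate cyclin-dependent kinases, and their genes are read in the S, G2 and M phases of the cell cycle. A-type cyclins act in S phase, G2 and early mitosis, and B-type cyclins at the entry into mitosis. Both are destroyed through the anaphase-promoting complex as the cell divides. Most cells of an expanded leaf have stopped dividing, whereas cells of an auxin-fed suspension go on dividing. The share of dividing cells in the leaves and culture used here was not measured in these data. H3K4me3 lies over the starts of active genes, H3K27me3 is laid down by Polycomb complexes over silent genes, and H3K9me2 belongs mainly to silent transposable elements.

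Total reads per library were 1679480 to 2183580 in leaf and 3128553 to 5672742 in the culture. Values are given as reads, as read density (reads per kb of gene per 1000000 nuclear reads), as a level (log2 of mark over H3 within leaf or culture) and as a change (the culture level minus the leaf level). A gene is said to have risen or fallen where its change was at least 2-fold and the 95% counting interval excluded 0. A gene is called marked where its level was at least 1, which is 2-fold over H3. The libraries met their labels in most marker genes: of 9 leaf photosynthesis genes with enough reads, H3K4me3 fell in 7 in the culture and rose in 1 (PSAD1), and their median level was 2.93 in leaf and 0.96 in the culture. Polycomb targets had a median H3K27me3 level of 2.67 in leaf and 3.61 in the culture, and transposable elements a median H3K9me2 level of 1.76 in leaf and 0.25 in the culture. The culture H3K9me2 library was thus only weakly enriched over these elements, below the level of 1 used for marked genes. The material was whole tissue or culture, so a mark in more cells and more mark per cell cannot be told apart.

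The A-type members lie on chromosomes 1 and 5 of TAIR10, and the B-type members on chromosomes 2, 3, 4 and 5. CYCA1;1 (AT1G44110), the only A1-type member, covers 16774865 to 16777247 of chromosome 1. CYCA2;3 (AT1G15570) covers 5362009 to 5365549, CYCA2;4 (AT1G80370) covers 30213705 to 30216861, and CYCA3;2 (AT1G47210), the only A3-type member, covers 17300951 to 17302866 of that chromosome. CYCA2;2 (AT5G11300) covers 3601517 to 3605265 and CYCB1;2 (AT5G06150) 1859279 to 1861649 of chromosome 5. CYCB1;1 (AT4G37490) lies at 17621886 to 17624285 of chromosome 4 and CYCB1;3 (AT3G11520) at 3625324 to 3627273 of chromosome 3. CYCB1;4 (AT2G26760) at 11401329 to 11403427 and CYCB2;1 (AT2G17620), the only B2-type member, at 7664103 to 7666522 share chromosome 2. The counted interval is the whole annotated gene, from 1915 to 3748 bp, with no position inside it. Genes are named below by symbol where they are described and by locus identifier or type where they are listed.

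H3K4me3 was higher in the culture over many of the cyclin genes. Of the 10 members, which all had enough reads, 5 rose and 0 fell, where 12.7% of all tested genes rose and 8.55% fell. The median change over the members was 1.25, against 0.11 over all 20473 tested genes. Both cyclin types were represented, with 2 of 5 A-type and 3 of 5 B-type genes. Measured from the median gene the same 5 rose and 0 fell, where 10.3% of genes rose and 10.4% fell. H3K4me3 per nuclear read, without division by H3, rose in 7 members, where 10.3% of genes did, and fell in 1, where 14.9% did.

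CYCA1;1, an A-type cyclin whose transcript peaks around mitosis, had the largest H3K4me3 change of the family. It held 9 H3K4me3 reads in leaf and 159 in the culture, a density of 1.82 and 19.2, or 10.5-fold more in the culture. H3 over the gene was alike, with 21 leaf and 48 culture reads and densities of 6.08 and 6.47. Its level went from -1.66 (-2.73 to -0.58) in leaf, below the H3 line, to 1.55 (1.09 to 2.01) in the culture, above it. The change of 3.21 (2.03 to 4.38) ranked 77 among the 20473 tested genes.

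Among the B-type cyclins, which drive entry into mitosis, CYCB1;3 had the largest change. It held 20 leaf and 92 culture H3K4me3 reads, and its density went from 4.94 to 13.6. The change of 2.51 (1.41 to 3.60) includes a fall of H3 itself, whose density was 7.43 in leaf and 3.46 in the culture. Its culture level of 1.92 was the highest of the 10 genes. CYCB2;1 held 10 and 60 reads, with a density of 1.99 in leaf and 7.13 in the culture and a change of 2.27 (1.07 to 3.47). CYCB1;4 held 10 and 49 reads, with a density of 2.30 and 6.72 and a change of 2.07 (0.85 to 3.29). In both genes the leaf level was -1.58, and the counts of 10 leaf reads make the change imprecise.

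CYCA2;4, one of the A2 cyclins that act with B1-type kinases to keep cells from endoreduplication, held 18 leaf and 66 culture H3K4me3 reads. Its change was 1.55 (0.57 to 2.53), the smallest of the 5 rises. The other A2-type members did not rise. CYCA2;3 held 50 leaf and 34 culture reads and, like AT4G37490 and no other member, had a lower H3K4me3 density in the culture. Its change was -0.45 (-1.40 to 0.49), and H3 was also lower, at a density of 5.46 in leaf and 3.08 in the culture. CYCA2;2 held 69 and 295 H3K4me3 reads but also 25 and 165 H3 reads, and its change was -0.23 (-0.94 to 0.47).

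The remaining 3 members had an H3K4me3 change whose interval reached 0. CYCA3;2, a cyclin of the S-phase A3 group, held 35 leaf and 111 culture reads and had a change of 0.96 (-0.02 to 1.94). CYCB1;2 held 30 and 107 reads and had a change of 0.73 (-0.21 to 1.67). CYCB1;1, widely used as a reporter of G2 and mitosis, held 32 and 48 reads, with densities of 6.43 in leaf and 5.76 in the culture. Its change was -0.38 (-1.37 to 0.62), so no rise was detectable at this depth.

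**Figure D1:**
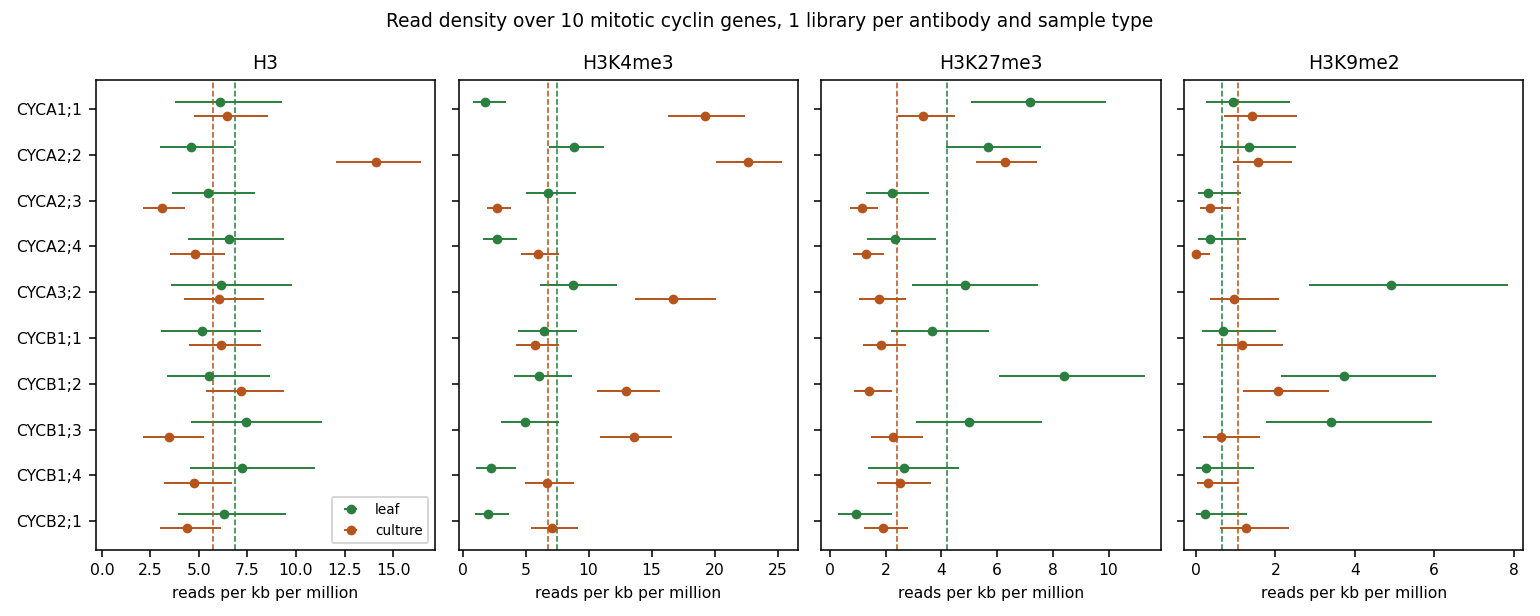
Read density of the 10 members (rows) for each antibody (panels), in reads per kb per 1000000 nuclear reads, in leaf (green) and culture (orange). Points are single libraries, bars are exact 95% Poisson intervals, and dashed lines are the median protein-coding gene of the same library. H3K4me3 over the A1-type gene stands at 1.82 in leaf and 19.2 in the culture, and H3 over AT5G11300 at 4.60 and 14.1.

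The members that rose were those with little H3K4me3 in leaf. Their leaf levels were -1.66 to -0.59, and those of the other 5 members 0.11 to 0.91, so the groups did not overlap. In the culture they did, at 0.32 to 1.92 and -0.16 to 1.44. The leaf level is subtracted in the change, so genes with a low leaf level tend to be called risen by construction. The split carries no test, and how far it holds over all tested genes was not computed. The A1-type gene, AT2G26760 and the B2-type gene stood above only 2.86%, 3.38% and 3.38% of tested genes in leaf, and above 84.3%, 54.3% and 60.9% in the culture.

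By the order of H3K4me3 densities, AT5G11300 and the A3-type gene were highest in leaf, at 8.87 and 8.81, and the A1-type gene lowest. No neighbours in the leaf order differed beyond counting error. In the culture CYCA2;2 (22.6), CYCA1;1 (19.2), CYCA3;2 (16.7), CYCB1;3 (13.6) and CYCB1;2 (13.0) formed an upper group. The B2-type gene came next at 7.13 and AT1G15570 was lowest at 2.76. The step from AT5G06150 to the B2-type gene and that from AT4G37490 to AT1G15570 exceeded counting error, and the other steps did not. None of the 10 genes was marked by H3K4me3 in leaf, where 22.8% of tested genes were, and 3 were marked in the culture (the A1-type gene, the A3-type gene and AT3G11520), where 29.2% were.

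**Figure D2:**
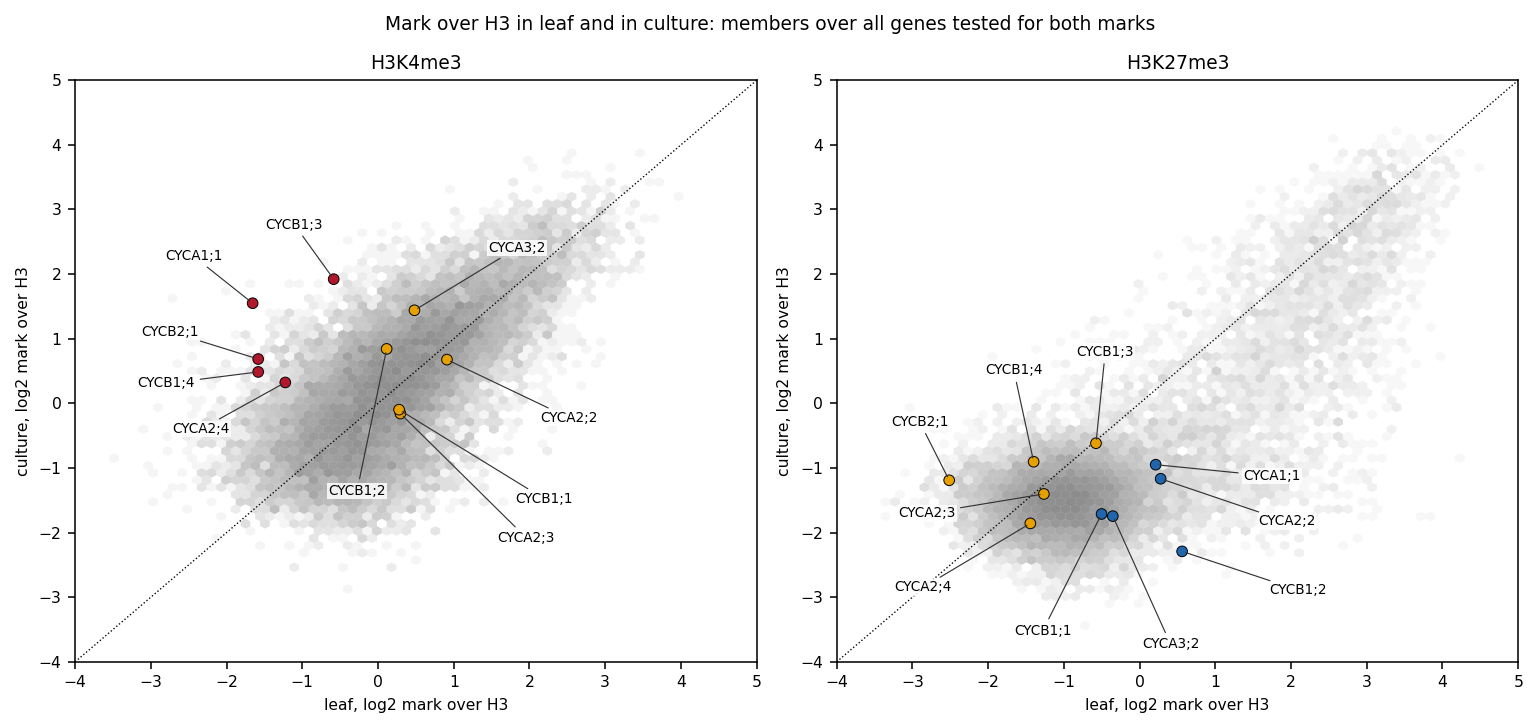
Level (log2 of mark over H3) in leaf (horizontal) and in the culture (vertical) for H3K4me3 and H3K27me3. Grey shading is the number of genes tested for both marks on a log scale, points are the members (red rose, blue fell, yellow neither) and the dotted line marks equal levels. For H3K4me3 the 5 red members lie left of 0 in leaf, at -1.66 to -0.59. For H3K27me3 no member reaches a level of 1 in either axis.

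H3K27me3 was not a strong feature of any member, in leaf or in the culture. None reached a level of 1, where 19.4% of tested genes did in leaf and 11.9% in the culture. The highest leaf levels were 0.56 in AT5G06150, 0.28 in AT5G11300 and 0.21 in the A1-type gene, all with intervals that include 0. In the culture 9 of 10 members had intervals wholly below 0, and the exception was AT3G11520 at -0.62 (-1.44 to 0.20). The share of all genes with such intervals was not computed. The median culture level was -1.30 over the members and -1.34 over all tested genes, so a low level was not particular to the members.

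Within that low range H3K27me3 was lower in the culture over 5 members. CYCA1;1, CYCA2;2, CYCA3;2, CYCB1;1 and CYCB1;2 fell and 0 rose, where 26.7% of all tested genes fell and 2.76% rose. The median change was -0.79 over the members and -0.57 over the 19845 genes tested. Per nuclear read, without division by H3, 5 members fell, with AT3G11520 in place of AT5G11300, and 0 rose, where 40.1% of genes fell and 3.66% rose. Measured from the median gene only AT5G06150 fell, where 11.8% of genes did, and the B2-type gene rose, where 8.61% did.

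CYCB1;2 had the clearest fall. It held 43 H3K27me3 reads in leaf and 19 in the culture, although the culture library is the deeper one, and its density went from 8.40 to 1.42. The change was -2.85 (-3.92 to -1.79). In leaf its level exceeded that of 77.3% of tested genes and in the culture that of 3.57%. CYCA2;2 changed by -1.44 (-2.21 to -0.68), with 46 leaf and 133 culture reads. This fall rests on the division by H3, since the density was 5.68 in leaf and 6.28 in the culture.

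CYCA3;2 held 20 and 19 H3K27me3 reads, a density of 4.83 in leaf and 1.76 in the culture, and changed by -1.39 (-2.59 to -0.19). CYCB1;1 held 19 and 25 reads and changed by -1.21 (-2.35 to -0.07). CYCA1;1 held 37 and 45 reads, with densities of 7.19 and 3.34, and changed by -1.16 (-2.12 to -0.21). It was the only member in which H3K4me3 rose and H3K27me3 fell, which held in 3.40% of the 19258 genes tested for both marks. At least 1 of these changes was seen in 9 of the 10 members, all except AT1G15570, and in 35.5% of those genes. Both changes are taken against the same H3 libraries.

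The other 5 members had H3K27me3 changes whose intervals included 0. They were -0.42 (-1.52 to 0.69) in AT1G80370, -0.14 (-1.27 to 0.99) in AT1G15570 and -0.04 (-1.22 to 1.14) in AT3G11520. AT2G26760 had 0.50 (-0.72 to 1.71). The B2-type gene had the fewest reads, 5 in leaf and 26 in the culture, and the highest change, 1.32 (-0.16 to 2.81). The family thus held genes on both sides of the median gene for this mark.

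The balance of H3K4me3 against H3K27me3 was compared as well, since H3 cancels from it. The log2 ratio of the marks was higher in the culture in 9 of 10 members, and in 19572 of all 27213 protein-coding genes. It passed the 2-fold rule in 7 members, where 34.1% of tested genes did. None fell, where 5.78% of tested genes did. The median change of the ratio was 1.77 in the members and 0.66 in all genes tested. CYCA1;1 led at 4.37 (3.26 to 5.48), its ratio going from -1.87 in leaf to 2.50 in the culture. CYCB1;2 followed at 3.58 (2.62 to 4.54), from -0.45 to 3.13. In the first gene both marks passed the rule, and in the second only H3K27me3 did.

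AT3G11520 had a ratio change of 2.55 (1.48 to 3.61), the A3-type gene of 2.35 (1.31 to 3.39) and AT1G80370 of 1.96 (0.80 to 3.12). AT2G26760 had 1.57 (0.25 to 2.90) and AT5G11300 had 1.21 (0.60 to 1.82). These 5 genes passed the rule, and measured from the median gene AT2G26760 and AT5G11300 did not. The intervals of the B2-type gene at 0.94 (-0.63 to 2.52), AT4G37490 at 0.83 (-0.22 to 1.89) and AT1G15570 at -0.32 (-1.39 to 0.76) included 0.

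**Figure D3:**
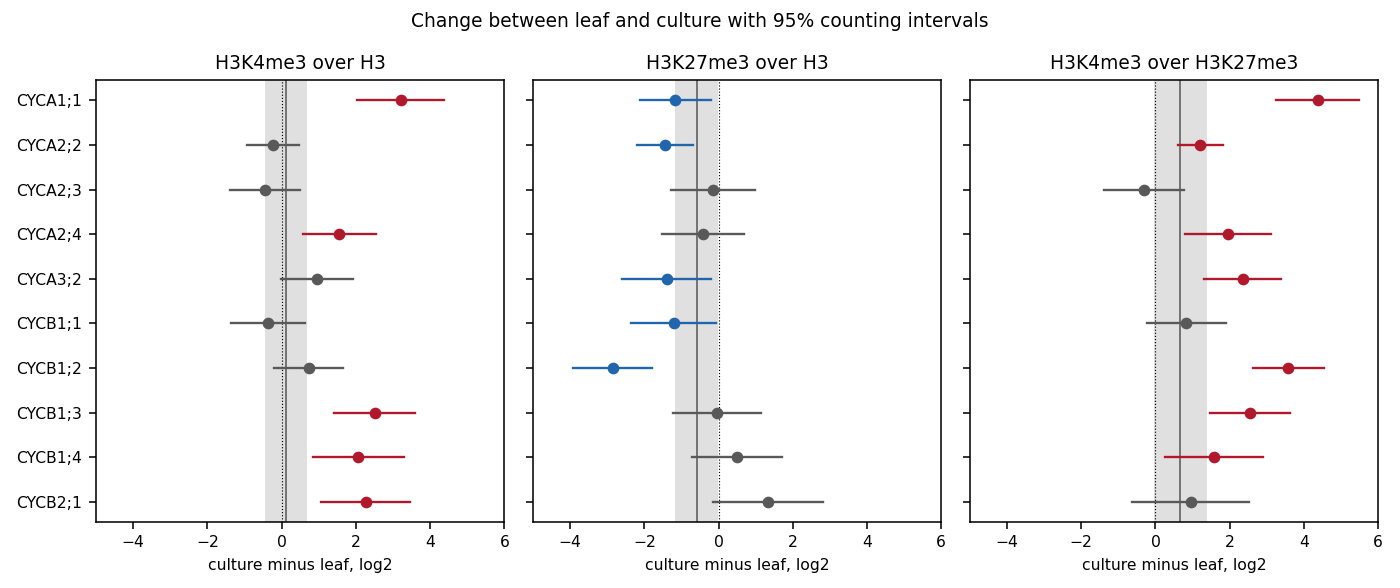
Change from leaf to culture (culture minus leaf, log2) of the 10 members for H3K4me3 over H3, H3K27me3 over H3 and H3K4me3 over H3K27me3. Points are single comparisons of libraries with 95% counting intervals (red rose, blue fell, grey neither). The grey band and line are the quartiles and median of all tested genes. H3K4me3 rose in 5 members, H3K27me3 fell in 5, and the A1-type gene is in both sets.

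H3K9me2 was scarce over all members. In the culture every level lay with its interval below 0, from -5.65 to -1.69. The share of all genes with such intervals was not computed. Among genes with enough reads, the median culture level was -2.47 over 3 members and -1.97 over 6147 genes. A low level was thus not particular to the members. No member was marked in either material, where 3.63% of tested genes were in leaf and 4.57% in the culture. Most members had too few reads to be among the tested genes, so these shares are not a like comparison. The culture library was itself only weakly enriched over transposable elements, at a median level of 0.25. Only 3 members had the 20 reads needed for a change. The A3-type gene, with 17 leaf and 6 culture reads, fell by 2.15 on the log2 scale (-3.64 to -0.65). AT5G11300, with 9 and 19 reads, had a change of -1.42 (-2.67 to -0.17) that rests on its H3. AT5G06150 had 16 reads in each library and a change of -1.18 (-2.40 to 0.04). Of all tested genes 10.7% fell and 21.6% rose. Without division by H3 only the A3-type gene fell, where 14.3% of genes did, and 0 members rose, where 29.8% did. Measured from the median gene, all 3 fell, where 16.8% of genes did, and 0 rose, where 14.4% did.

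Among the 7 members without enough H3K9me2 reads, AT3G11520 had 12 leaf and 4 culture reads. The A1-type gene had 4 and 11, AT4G37490 had 3 and 9, the B2-type gene had 1 and 10, AT1G15570 had 2 and 4, and AT2G26760 had 1 and 2. AT1G80370 had 2 leaf reads and 0 in the culture, where the limit of 3 reads set for a count of 0 is a density of 0.29 and the exact Poisson upper bound is 0.36. No difference is read from these counts.

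H3 itself, the divisor of each change, differed over 2 members. Its difference (log2 of culture over leaf) had a median of -0.27 over the members and -0.29 over all 21146 tested genes. It rose in CYCA2;2, by 1.57 (0.97 to 2.17), and fell in CYCB1;3, with -1.10 (-1.96 to -0.25). Of all tested genes 4.04% rose and 10.5% fell. Measured from the median gene the fall of AT3G11520 did not pass, at -0.82 (-1.67 to 0.03). In leaf the H3 densities of the 10 genes lay between 4.60 and 7.43, and no neighbours in their order differed beyond counting error. In the culture AT5G11300 stood alone at 14.1, beyond counting error above AT5G06150 at 7.18, and the others lay between 3.08 and 6.47.

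The high H3 of CYCA2;2 extended to its neighbours, which were examined after its value was seen. In 3 adjacent genes, AT5G11290, AT5G11300 and AT5G11310, the interval of the H3 difference lay above 0, with differences of 0.88, 1.57 and 1.16. Summed over these 3 genes, reads per 1000000 were 2.47-fold those of leaf for H3, 2.91-fold for H3K4me3, 1.19-fold for H3K27me3 and 2.1-fold for H3K9me2. The next gene, AT5G11320, had an H3 difference of -0.32 (-1.07 to 0.44). On the other side AT5G11280, AT5G11270, AT5G11260 and AT5G11250 had 0.68, 0.34, 0.60 and 0.70, with an interval above 0 only in the last (0.18 to 1.21). The median gene had an H3 difference of -0.29, so the extent of the stretch depends on the cut-off at 0. More copies of this DNA in the cell line and more H3 per copy cannot be told apart with these libraries, and their part in the changes of the gene was not tested.

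CYCA3;2 borders a similar stretch without being in it. It is the first of 3 tandem A3-type cyclin genes, and its H3 difference was -0.07 (-0.88 to 0.75), with 17 leaf and 36 culture reads. The next gene, CYCA3;3, held 6 leaf and 167 culture H3 reads. CYCA3;4 held 17 and 183, and AT1G47240 beyond it 23 and 211. Summed over those 3 genes, reads per 1000000 in the culture were 5.67-fold those of leaf for H3, 6.49-fold for H3K4me3, 1.80-fold for H3K27me3 and 6.11-fold for H3K9me2. The 810 bp between the first and the next gene held 1 leaf and 20 culture H3 reads, so the step lies at the edge of the member. Here too, DNA copies and H3 per copy cannot be told apart. These genes are relatives, and how reads that match several places were counted is not given in the sources used here.

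**Figure D4:**
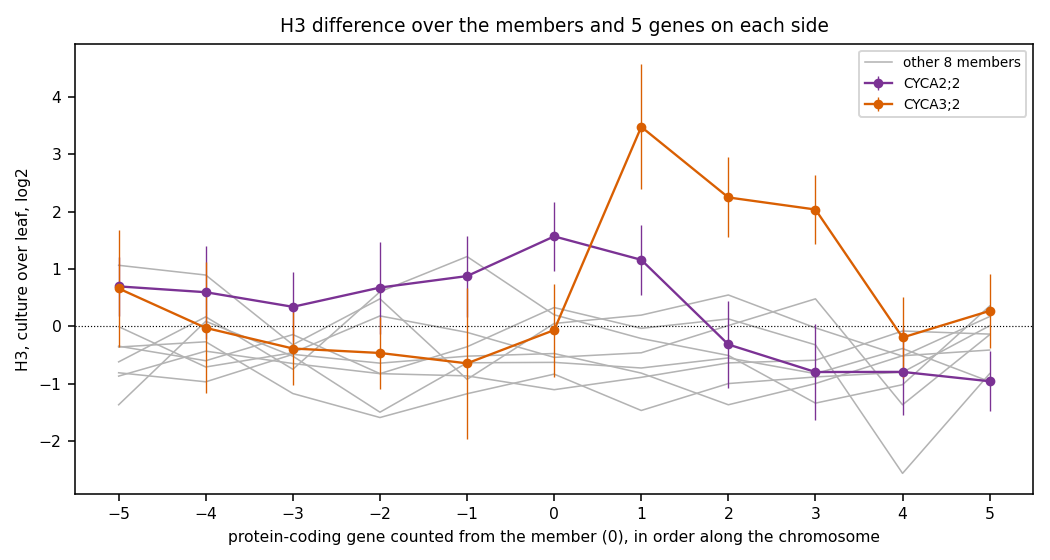
H3 difference (log2 of culture over leaf reads per 1000000) over each member (place 0) and the 5 protein-coding genes on each side of it. AT5G11300 and the A3-type gene are coloured, with 95% counting intervals, and the other members are grey. AT5G11300 reaches 1.57 at place 0, and the genes after the A3-type gene reach 3.48, 2.25 and 2.04 at places 1 to 3.

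The spacer beside a gene can hold part of its H3K4me3, so the intergenic intervals on both sides of each member were read as well. The median over 20 spacers was 2 H3K4me3 reads in leaf and 4.5 in the culture, and the largest count 24 and 36. The last 2 values belong to the 1321 bp after AT3G11520 in chromosome order, a spacer it shares with AT3G11530. Next to the A3-type gene, the 248 bp before it held 0 leaf and 12 culture H3K4me3 reads. Beside AT1G15570, the 2835 bp before the gene held 22 leaf and 6 culture reads, the same direction as the 50 and 34 reads in the gene. After AT2G26760, however, the spacer held 15 leaf and 3 culture reads, opposite to the 10 and 49 in the gene. AT2G26770 begins at the other end of this spacer, so the reads may belong to either gene. Gene strand was not used here, so no spacer is called a promoter.

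The other A- and B-type cyclin genes numbered 10, of which 9 had enough reads. H3K4me3 rose in 5, where 12.7% of all tested genes did, and fell in 0, with a median change of 1.15. H3K27me3 fell in 3, where 26.7% of all tested genes did, and rose in 0, with a median of -0.78. The difference between these genes and the members was not tested. CYCB1;5 was highest for H3K4me3, at 2.12 (1.38 to 2.85), followed by CYCB2;2 at 1.60 (0.36 to 2.85). The lowest were CYCB2;4 at -0.10 and CYCA1;2, a cyclin of the meiotic divisions, at 0.02, both with intervals that include 0. CYCB1;5 also had the largest H3K27me3 fall, -3.64 (-4.36 to -2.91), with 397 leaf and 32 culture reads, and was the only one of the 20 cyclin genes marked by H3K27me3 in leaf among those with enough reads, at a level of 2.02. CYCA3;4 had an H3K27me3 change of -1.45 (-2.46 to -0.43) that rests on the division by H3. Its H3K27me3 density was higher in the culture, at 3.46 in leaf and 6.31 in the culture, and its H3 density went from 5.16 to 25.8. The highest values were 0.56 in CYCA2;1 and -0.18 in CYCA3;1.

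Among the kinases that the cyclins activate, and their partners, 9 of 13 genes had enough reads. H3K4me3 rose in 1, where 12.7% of all tested genes did, and fell in 0, and the median change was 0.80. The rise was at CDKB2;2, a kinase of G2 and mitosis, by 1.3 (0.28 to 2.31). WEE1, a kinase that restrains CDKs, had 0.97 (0.03 to 1.92), short of 2-fold. CDKA;1, the kinase active through the whole cycle, had -0.15 (-0.90 to 0.59), and the CDK-activating kinase CDKF;1 had -0.40 (-1.10 to 0.30). H3K27me3 rose in 1, where 2.76% of all tested genes did, and fell in 0. The rise was at CYCH;1, a partner of the CDK-activating kinases, by 1.47 (0.33 to 2.60). CDKD;3 had 0.51, CDKB2;2 had -0.85 and CDKD;1 had -0.86, with intervals that include 0.

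Transcriptional regulators of cyclin genes, the MYB3R factors of G2 and M genes and the E2F, DP and RBR1 proteins of S-phase genes, numbered 11 tested genes. In H3K4me3 1 rose, where 12.7% of all tested genes did, and 0 fell, with a median of 0.39. DPA, a dimerization partner of E2F factors, rose by 1.33 (0.02 to 2.64), MYB3R1 had 0.71 (0.13 to 1.3), RBR1 had -0.15 and DPB had -0.76 (-1.55 to 0.02). For H3K27me3 4 fell, where 26.7% of all tested genes did, and 0 rose, with a median of -0.70. MYB3R3, a repressor of G2 and M genes, changed by -1.61 (-2.65 to -0.57) and DPB by -1.49 (-2.52 to -0.46), while E2FB had -0.13 and RBR1 had -0.21.

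The anaphase-promoting complex, which removes mitotic cyclins, and its regulators made up 17 tested genes. H3K4me3 rose in 4, where 12.7% of all tested genes did, and fell in 0, with a median of 0.58. OSD1, an inhibitor of the complex, rose by 2.24 (1.08 to 3.41), and the activator gene CDC20.2 by 1.93 (1.13 to 2.72). The subunit gene APC8 had -0.58 (-1.35 to 0.18) and CCS52A2, an activator used in endoreduplicating cells, had -0.20. H3K27me3 fell in 3, where 26.7% of all tested genes did, and rose in 0, with a median of -0.52. UVI4, a relative of OSD1, had the largest fall, -2.55 (-3.77 to -1.33), and OSD1 changed by -1.44 (-2.61 to -0.27). APC11 had 1.56 (-0.02 to 3.15) and SAMBA 0.51, neither past the rule.

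**Figure D5:**
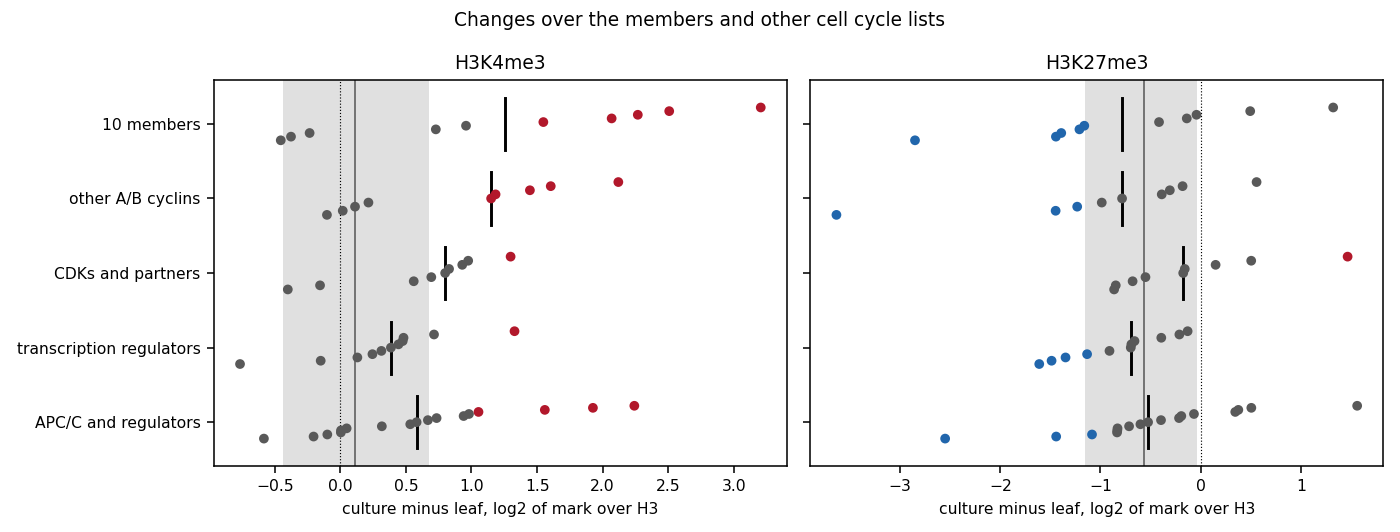
Changes in H3K4me3 and H3K27me3 over H3 (culture minus leaf, log2) of the members and of 4 other cell cycle lists, among genes with enough reads. Each point is a gene (red rose, blue fell, grey neither) and the black bar is the median of the list. The grey band and line are the quartiles and median of all tested genes. The H3K4me3 medians are 1.25 for the members and 1.15 for the other A- and B-type cyclins.

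The members were compared with their own median profile. The median H3K4me3 level of the members was -0.24 in leaf and 0.68 in the culture, against 0.20 and 0.35 over all tested genes. For H3K27me3 it was -0.54 and -1.30, against -0.72 and -1.34. By the distance over 4 levels (H3K4me3 and H3K27me3, leaf and culture), the genes nearest to the median of the members were AT1G03560, AT5G43660, AT3G20790, CHR17 and DUF7, at 0.13 to 0.19. Of 19181 genes outside the lists, 2524 were nearer to that median than AT4G37490, the nearest member, at 1.02. The B2-type gene was farthest at 2.39 and the A1-type gene next at 1.86. Counting error of the levels was not carried into these distances. They are therefore not read as differences between members, or as a spread beyond that error.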

How the data were processed

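The authors deposited raw counts, whole numbers of reads per interval, for each of 109972 intervals (annotated genes, transposons and the spacers between them) in each of the 8 libraries. Per the submitters' processing notes, Bowtie2 and bedtools were used with TAIR10. Their versions, and how duplicates and reads that match several places were treated, are not stated there. Per the labels' protocols, cultured cells were fixed with 1% paraformaldehyde for 15 min. How leaves were fixed is not stated.

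With Python 3.11.15, counts plus a pseudocount of 1 were scaled per 1000000 nuclear reads. Nuclear reads numbered 1449274 to 2160614 in leaf and 3116646 to 5649143 in the culture. Changes, intervals and calls were computed for all protein-coding genes with at least 20 mark reads over both libraries and 10 reads in each H3 library. Intervals for log2 ratios use the counting error of the counts involved, and intervals for densities are exact Poisson. PCR duplicates are not independent molecules, so intervals understate the error. With 1 library per group no test between leaf and culture was run. The code was tested on simulated data.

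Named genes are all members, the 2 highest and 2 lowest changes of each other list for each of H3K4me3 and H3K27me3, and the 5 genes nearest to the members' median. Other genes named (neighbours, and CKS and CDKB genes at the end) were chosen after their values were seen, as were the ratio of H3K4me3 to H3K27me3 and the neighbouring genes. The members and lists were chosen with earlier results of these data known. Gene coordinates are those of the files. Their starts equal the 1-based RefSeq start in 34.0% of 26726 matched genes and lie 1 base before it in 0.0037%. They are read as 1-based on that ground, although most starts match neither. Lengths are end minus start. Protein, promoter and genome sequences were not used here.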

Additional observations from a re-analysis of the deposited data

Results flagged for a closer look

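H3K4me3 lay on opposite sides of H3 in leaf and in the culture over 2 members, with both counting intervals off 0. In CYCA1;1 H3K4me3 went from a leaf level of -1.66 (-2.73 to -0.58) to a culture level of 1.55 (1.09 to 2.01), which is a change of 3.21. In CYCB2;1 it was -1.58 (-2.62 to -0.55) and 0.69 (0.08 to 1.29), a change of 2.27. With 1 library on each side the difference between leaf and culture was not tested.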

How the results depend on the processing

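No paired analysis was possible because each group holds 1 library, and no library could be left out. Each change was recomputed under 7 alternatives set at the start. The H3K4me3 rises of CYCA1;1, CYCB1;3, CYCB1;4 and CYCB2;1 passed under all of them, and that of CYCA2;4 under all except a 3-fold rule. Without H3, the CYCA2;2 values changed sign. H3K4me3 became a rise (1.34), from a change whose interval included 0. H3K27me3 (0.12) and H3K9me2 (0.15) then had intervals that included 0, so their falls were lost. Under the same setting H3K4me3 fell in 1 member (CYCA2;3) and H3K9me2 in 1. Centred on the median gene, H3K27me3 fell in 1 and rose in 1, its median was -0.22, and H3 fell in 0, where 4.08% of genes did. Under a 3-fold rule H3K27me3 fell in 1 (13.4% of genes), H3K9me2 fell in 1 (6.57%), and H3 rose in 0 (1.58%) and fell in 0 (1.57%). With totals of protein-coding genes alone, H3K27me3 fell in 2 (14.5% of genes) and rose in 1 (6.34%), and 2 members were marked by H3K9me2 in leaf (13.1%). With totals that leave out intervals of very dense H3, H3K9me2 fell in 1 (6.64%). Without the filter the H3K9me2 median was -0.43 over all 10 members, against -1.42 over 3. At a marked level of 1.5-fold, 1 member was marked by H3K4me3 in leaf, where 35.5% of genes were, and 6 in the culture, where 42.5% were. Of the ratio of H3K4me3 to H3K27me3, 5 members rose when centred (16.3% of genes), under the 3-fold rule (19.6%) or with gene totals (21.3%), against 7. The causes were not tested. Leaf H3 held 17 to 30 reads per member, which limits the precision of each change.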

Other observations

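Several partner genes had too few H3 reads for a change, and their H3K4me3 counts are given as values, chosen after they were seen. CKS2, a small subunit of CDK complexes, held 1 leaf and 44 culture H3K4me3 reads, beside 14 and 8 H3 reads. Its neighbour CKS1 held 16 and 34, beside 11 and 5 H3 reads. CDKB2;1, the sister of CDKB2;2, held 13 and 147, beside 7 and 53 H3 reads. CDKB1;2, a partner kinase of A2-type cyclins, held 10 and 35, beside 9 and 18 H3 reads. In each of these genes the H3K4me3 count was higher in the culture, whose library is the deeper, and no change is called from them.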
